A study of Mus musculus with 6 samples.

Results

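Transcripts of 9 genes that take up, store, release and sense iron were followed in mouse leukemia-type cells carrying a TGIF1 vector or an empty vector. The genes were Tfrc, Slc11a1, Slc11a2, Slc40a1, Fth1, Ftl1, Hfe, Ireb2 and Ncoa4, taken as all rows of the deposited table that carry one of these symbols. They gave 10 probe sets of 28853 on the array (Ncoa4 has 2), or 9 genes of 22319 named ones. RNA came from mouse c-kit+ marrow cells that MLL-AF9 had transformed, and was read on Affymetrix Mouse Gene 1.0 ST arrays. MLL-AF9 is a leukemia oncogene that joins part of MLL, a chromatin regulator, to AF9. Both groups carry it, and both carry the retroviral vector pMIG, which expresses GFP. The pMIG-TGIF1 group (n = 3 arrays) also received TGIF1, a homeodomain repressor, and the pMIG group (n = 3 arrays) received the vector without it. Cells were sorted for GFP on day 3 after transduction and lysed after 1 further day in medium. No mouse age or strain is used here. The labels do not say whether replicates are separate cultures, so the spread behind each p-value is that between these arrays and may be technical.

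Cells import transferrin-bound iron through the transferrin receptor, pump it out of endosomes with a divalent metal transporter, use it for heme and iron-sulfur clusters, and keep the surplus inside ferritin shells. Dividing progenitors are known for high transferrin receptor, because DNA synthesis needs an iron enzyme. Macrophages take iron from engulfed red cells, free it with heme oxygenase, hold it in ferritin and return it through ferroportin. Cytosolic iron sensors bind stem-loops (iron-responsive elements, IREs) in several of these transcripts and so set ferritin translation and the stability of transferrin receptor RNA. Arrays read the RNA level and not translation.

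Of the 9 genes, 3 rose in the pMIG-TGIF1 arrays (Slc11a1, Fth1 and Ftl1), 1 fell (Tfrc), and 5 did not pass. A call is a Benjamini-Hochberg adjusted p under 0.05 in a limma fit over 25123 named probe sets. Of these probe sets 24.7% were called (11.5% higher and 13.2% lower). The 4 calls among 9 genes (44.4%) are to be read beside this high background. The 9 genes were chosen with earlier results of these data known. The rise of Slc11a1, 5.15-fold, was the widest of the 9. In 6 genes the arrays of the groups did not overlap (4 with pMIG-TGIF1 higher, 2 lower), as in 38.4% of all named probe sets. The ferritin changes and the fall of Tfrc were under 1.5-fold. The median log2 fold change of the 9 genes was 0.12, against 0.017 over all genes. Centring each array on its median shifted all log2 fold changes down by a median of 0.11 (-0.11). Many small values of single genes are therefore given with the centred one beside them as "centred".

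The 4 called genes are shown by the bases before their annotated transcription starts, because they are the members that differed between the vectors. Sequences are RefSeq windows of the GRCm38.p6 build, of which 7 of the 9 genes have at least 1 (11 windows in all). Each line gives 250 bases, 5′ to 3′, ending at the base before the start. Both windows of Fth1 are given, and for Tfrc the window before its outer start. Capitals mark matches on either strand to 5 short motifs: TGTCA (the core read by TGIF proteins), CACGTG (the E-box of MYC), TGACNNNGC (the antioxidant response element), TGANTCA (AP-1) and GAGGAA (a core of the myeloid factor PU.1).
Slc11a1, chr1:74374953-74375202, plus strand: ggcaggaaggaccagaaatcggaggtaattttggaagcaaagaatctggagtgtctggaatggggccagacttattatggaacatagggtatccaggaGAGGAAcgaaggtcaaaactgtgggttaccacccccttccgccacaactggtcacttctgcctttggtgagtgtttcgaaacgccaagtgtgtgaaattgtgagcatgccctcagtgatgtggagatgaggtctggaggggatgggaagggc
Fth1, chr19:9980350-9980599, plus strand: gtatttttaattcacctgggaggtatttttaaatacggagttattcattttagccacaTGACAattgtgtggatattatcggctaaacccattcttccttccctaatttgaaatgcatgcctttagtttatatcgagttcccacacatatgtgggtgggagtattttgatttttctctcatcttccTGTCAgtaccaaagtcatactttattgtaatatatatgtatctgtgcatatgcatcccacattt
Fth1, chr19:9982396-9982645, plus strand: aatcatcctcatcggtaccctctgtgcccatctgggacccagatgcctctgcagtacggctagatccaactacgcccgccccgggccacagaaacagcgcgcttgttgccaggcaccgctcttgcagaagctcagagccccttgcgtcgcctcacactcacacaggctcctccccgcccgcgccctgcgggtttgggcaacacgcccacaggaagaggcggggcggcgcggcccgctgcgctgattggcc
Ftl1, chr7:45459887-45460136, minus strand: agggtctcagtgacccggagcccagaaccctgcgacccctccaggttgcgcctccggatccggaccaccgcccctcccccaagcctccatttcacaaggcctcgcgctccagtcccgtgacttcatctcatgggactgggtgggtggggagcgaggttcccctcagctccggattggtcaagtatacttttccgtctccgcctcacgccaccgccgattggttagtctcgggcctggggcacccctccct
Tfrc, chr16:32608646-32608895, plus strand: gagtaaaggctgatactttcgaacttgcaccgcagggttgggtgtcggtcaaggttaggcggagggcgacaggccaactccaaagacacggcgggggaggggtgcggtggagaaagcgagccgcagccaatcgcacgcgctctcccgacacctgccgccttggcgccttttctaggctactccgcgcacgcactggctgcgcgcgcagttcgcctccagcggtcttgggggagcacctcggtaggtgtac

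In Slc11a1 the only match was GAGGAA, which began 152 bases before the start. Fth1 held TGTCA or its complement at 192 and 64 bases before the first of its starts and no match before the second. The Ftl1 window and the Tfrc window shown held none, and the inner Tfrc window held TGTCA at 71 bases. In windows of this length, 250 bases before to 50 after the start, TGTCA occurred in 45.4% of the 32851 windows of all genes and in 5 of 11 of the iron genes. GAGGAA occurred in 28.3% of all windows and in 2 of the 11, TGACNNNGC in 12.4% and 2, TGANTCA in 7.81% and 1, and CACGTG in 7.15% and 0. The TGACNNNGC match in Hfe overlaps its TGANTCA match. These are descriptions of letters in a window, not sites.

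**Figure D1:**
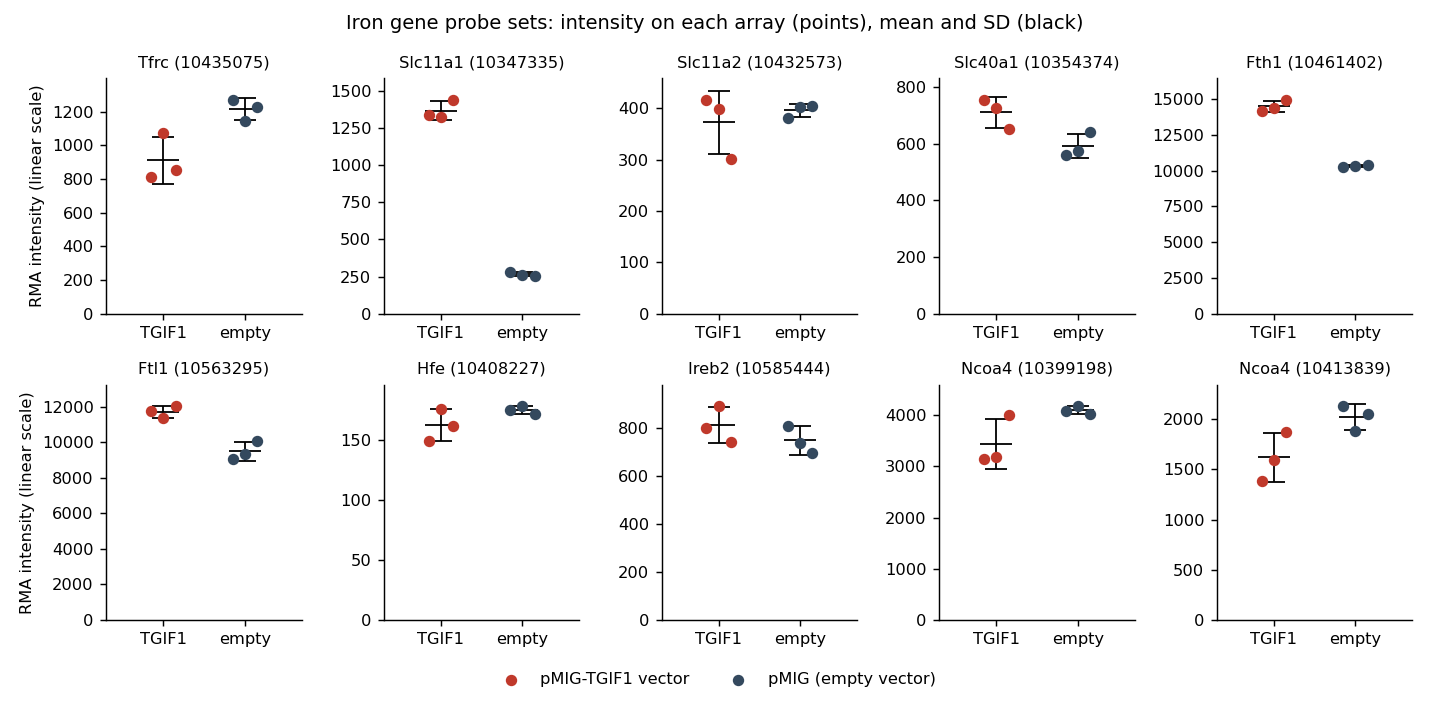
RMA intensity (linear scale, y axis from 0) of each of the 10 probe sets on each array, pMIG-TGIF1 in red and pMIG in dark blue, with the mean and SD of 3 arrays in black. Slc11a1 and Fth1 separate widely, Tfrc and Ftl1 by less, and Slc11a2, Hfe and Ireb2 overlap.

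Slc11a1 encodes NRAMP1, a proton-driven metal transporter of macrophage and neutrophil phagosomes that withdraws iron and manganese from engulfed microbes. It read 1335, 1322 and 1439 in the pMIG-TGIF1 arrays, against 282, 261 and 253 in the pMIG arrays. Every pMIG-TGIF1 array lay far above every pMIG array. The means were 1365 ± 64.1 and 265 ± 14.9 (SD, n = 3 each), a log2 fold change of 2.36 ± 0.09 (SE), or 5.15-fold with a 95% confidence interval of 4.46 to 5.93 and limma adjusted p = 1.46e-07. By p-value it ranked 22 of 25123 probe sets, and by size of rise 81. It was called under each of the 17 alternative settings, at log2 values of 2.26 to 2.41.

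Slc11a2 encodes DMT1, the related and widely expressed transporter that carries iron out of endosomes. It read 416, 399 and 301 in pMIG-TGIF1 and 382, 402 and 404 in pMIG. The groups overlapped, with pMIG-TGIF1 replicate 3 the lowest. Its log2 fold change was -0.10 (-0.21 centred, 95% confidence interval -0.38 to 0.18, limma adjusted p = 0.642). Without pMIG-TGIF1 replicate 3 it was 0.043. The difference between the log2 fold changes of Slc11a1 and Slc11a2 was 2.47 ± 0.20 (SE), and the within-array differences of the groups did not overlap. An exact two-sided permutation gave p = 0.1, which is the lowest that 20 assignments of 6 arrays allow, and 0.1 after adjustment over the 3 pairs of genes compared.

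Tfrc encodes the transferrin receptor TfR1, the main iron entry of dividing cells. It read 812, 1071 and 850 in the pMIG-TGIF1 arrays, against 1270, 1143 and 1228 in the pMIG arrays. The groups did not overlap, but pMIG-TGIF1 replicate 2 came close to pMIG replicate 2. The means were 911 ± 140 and 1214 ± 64.7 (SD, n = 3 each), and the log2 fold change was -0.42 ± 0.12 (SE; 1.34-fold lower, 95% confidence interval 1.12 to 1.61, limma adjusted p = 0.0234). The fall kept its direction under all 17 alternatives (-0.35 to -0.55) and lost its call in 5 of them. No moderation gave adjusted p = 0.124. Leaving out pMIG replicate 1 gave 0.0851 and pMIG replicate 3 gave 0.0773, while leaving out a TGIF1 array gave 0.0808 for pMIG-TGIF1 replicate 1 and 0.0611 for replicate 3.

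Hfe, an MHC class I-like protein that binds the transferrin receptor and is mutated in hemochromatosis, did not pass. It read 149, 176 and 162 in pMIG-TGIF1 and 176, 179 and 172 in pMIG, with overlapping groups. Its log2 fold change was -0.11 (-0.22 centred), with a 95% confidence interval of -0.33 to 0.10 (limma adjusted p = 0.471).

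Fth1 and Ftl1 encode the heavy and light subunits of ferritin, the shell that stores iron. The heavy subunit oxidizes iron and the light subunit helps it mineralize. Fth1 read 14174, 14349 and 14951 in the pMIG-TGIF1 arrays, against 10283, 10357 and 10418 in the pMIG arrays. The pMIG arrays lay within a narrow band, and all pMIG-TGIF1 arrays stood clear of it. The log2 fold change was 0.48 ± 0.09 (SE), or 1.40-fold (95% confidence interval 1.23 to 1.60, limma adjusted p = 0.00196), and it was called under all 17 alternatives (0.38 to 0.50).

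Ftl1 read 11768, 11374 and 12049 in the pMIG-TGIF1 arrays, against 9039, 9357 and 10064 in the pMIG arrays. The groups did not overlap. The log2 fold change was 0.31 ± 0.09 (SE), or 1.24-fold (95% confidence interval 1.08 to 1.42, limma adjusted p = 0.0303). This call lay near the threshold. It was lost with each array centred on its median (0.20, adjusted p = 0.137) and with the replicate number as a block (0.31, adjusted p = 0.0684). Leaving out an empty-vector array lost it for pMIG replicate 1 (adjusted p = 0.108) and pMIG replicate 2 (0.0896), and leaving out a TGIF1 array lost it for pMIG-TGIF1 replicate 1 (0.0699) and replicate 3 (0.0684).

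The log2 fold change of Fth1 exceeded that of Ftl1 by 0.18 ± 0.045 (SE), with no overlap of the within-array differences (exact two-sided permutation p = 0.1, adjusted 0.1, the smallest possible). Both ferritin genes have processed copies in the genome. RefSeq lists Fth-ps2 and Fth-ps3 on chromosomes 6 and 8 and Ftl1-ps1, Ftl1-ps2 and Ftl2-ps on chromosomes 13, 10 and 4, and the array annotation of the Ftl1 probe set also names an Ftl2 accession. Signal from the genes and from such copies cannot be told apart in these probe sets.

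Ncoa4 is the cargo receptor that carries ferritin to the lysosome, where its iron is freed. Its probe set 10413839 read 1388, 1596 and 1875 in pMIG-TGIF1, against 2132, 1885 and 2049 in pMIG. Probe set 10399198 read 3145, 3180 and 4012 in pMIG-TGIF1, against 4085, 4184 and 4030 in pMIG. In both, the groups narrowly failed to overlap, and pMIG-TGIF1 replicate 3 sat just under the lowest pMIG array. The log2 fold changes were -0.33 ± 0.12 (SE, limma adjusted p = 0.0729) and -0.26 ± 0.11 (adjusted p = 0.126), so neither was called.

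Leaving out pMIG-TGIF1 replicate 3 brought both Ncoa4 probe sets past the threshold (-0.44, adjusted p = 0.0145 for 10413839, and -0.37, adjusted p = 0.0166 for 10399198), as did array median centring (-0.44, adjusted p = 0.0151, and -0.37, adjusted p = 0.0248). Probe set 10413839 also passed with a trended, robust prior (adjusted p = 0.0449), with the dimmest 50% left out (0.0484) and with array weights (0.0314). Probe sets with neighbouring numbers on the array mostly, but not always, carry symbols of genes of one chromosome. Fth1 of chromosome 19 follows a Pcna probe set, 10461391, and Pcna lies on chromosome 2. But Pcna also has a brighter probe set, 10487930, and what 10461391 reads was not tested. Probe set 10413839 is numbered between those of Msmb and Parg, which lie on chromosome 14, as Ncoa4 does. Probe set 10399198 carries the same symbol but is numbered between those of Sp8 and Macc1 of chromosome 12, the chromosome on which RefSeq lists the pseudogene Ncoa4-ps. What 10399198 reads, gene or copy, was not tested.

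Slc40a1 encodes ferroportin, the known cellular iron exporter. It read 755, 727 and 651 in the pMIG-TGIF1 arrays, against 562, 573 and 642 in the pMIG arrays. The groups did not overlap, but pMIG-TGIF1 replicate 3 and pMIG replicate 3 were close. The log2 fold change of 0.26 ± 0.10 (SE; 1.20-fold, 95% confidence interval 1.03 to 1.40) missed the threshold (limma adjusted p = 0.0883). It was called with quantile normalization (0.34, adjusted p = 0.0310) and without pMIG-TGIF1 replicate 3 (0.33, adjusted p = 0.0483), and array median centring reduced it to 0.16. In the authors' deposited table the same fold, 1.20, stands beside an unadjusted p of 0.04.

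Tfrc and Slc40a1, the main routes of entry and exit, were also set against each other within arrays. The log2 fold change of Tfrc was below that of Slc40a1 by 0.69 (-0.69 ± 0.15, SE), and the within-array differences did not overlap (exact two-sided permutation p = 0.1, adjusted 0.1, the smallest possible).

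Ireb2 encodes IRP2, a sensor that binds IREs when iron is scarce. It read 801, 891 and 742 in pMIG-TGIF1 and 809, 739 and 693 in pMIG. The groups overlapped, and the log2 fold change was 0.12 (0.0096 centred, 95% confidence interval -0.12 to 0.35, limma adjusted p = 0.505). Of 10 genes known in mammals to carry an IRE, 4 rose and 1 fell (5 of 10 called, against 25.4% of all genes). Without pMIG replicate 2, 2 rose, as with the dimmest 50% left out, and 0 fell in each setting that lost Tfrc. The gene that fell was Tfrc, and besides the ferritins those that rose were Epas1, the hypoxia factor HIF-2α, which rose 1.80-fold (log2 0.85 ± 0.11, adjusted p = 0.000266), and the kinase gene Cdc42bpa (log2 0.59 ± 0.16, adjusted p = 0.0244). The Cdc42bpa call was lost on leaving out replicate 2 or 3 of either group. All Cdc42bpa readings (29.2 to 61.0) and the pMIG readings of Epas1 (54.4 to 70.1) lay below the array median intensities (79.3 to 87.7).

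**Figure D2:**
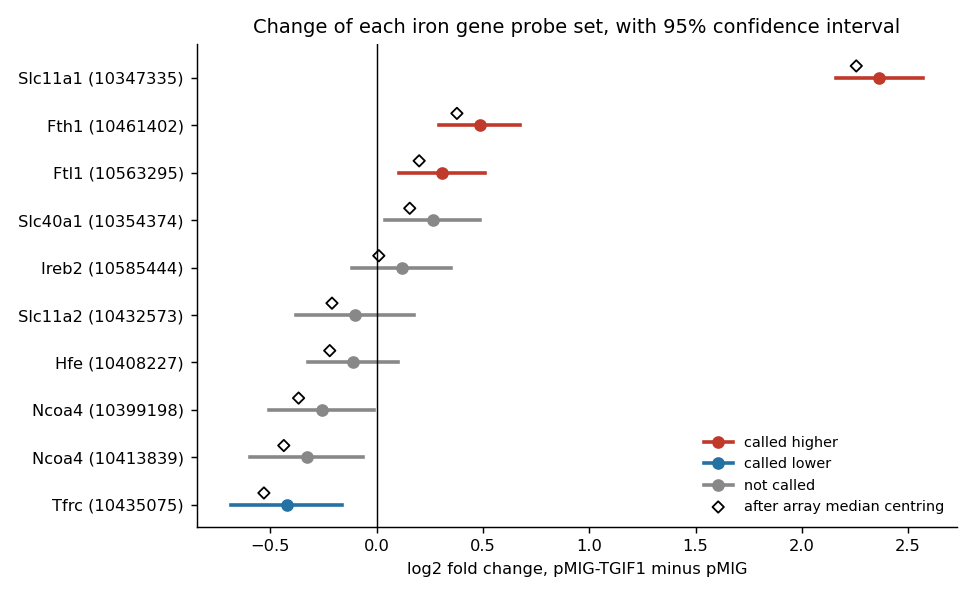
Log2 fold change, pMIG-TGIF1 minus pMIG (x axis), of each probe set with its 95% confidence interval from limma, coloured by call, and the same value after centring each array on its median (open diamonds). Slc11a1 stands at 2.36, the other 9 probe sets between -0.42 and 0.48.

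Iron genes beyond the 9 were read from lists, with 1 probe set per gene, against a background of 25.4% of genes called (12.0% higher, 13.4% lower). Of 17 other uptake and reduction genes 6 rose, 1 fell and 10 did not pass (41.2% called, median log2 fold change 0.27). Trf encodes transferrin, the iron carrier of plasma. It read 1099, 1075 and 1431 in the pMIG-TGIF1 arrays, against 258, 274 and 276 in the pMIG arrays. The groups were far apart, and the rise was 4.43-fold (log2 2.15 ± 0.12, limma adjusted p = 1.32e-06). Tfr2, a transferrin receptor known from liver and erythroid cells, rose 1.58-fold (adjusted p = 0.00696). Its pMIG readings (55.8 to 65.0) lay below the array median intensities (79.3 to 87.7).

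The paired metal importers moved apart. Slc39a14, which encodes ZIP14, rose 1.38-fold (log2 0.46 ± 0.09, limma adjusted p = 0.00363), while Slc39a8, which encodes ZIP8, fell 1.54-fold (log2 -0.62 ± 0.10, adjusted p = 0.000949). Neither showed overlap between the groups. The hemopexin-heme receptor Lrp1 rose 1.32-fold, the siderocalin receptor Slc22a17 1.36-fold and the ferrireductase Steap4 1.34-fold. All Steap4 readings (41.4 to 63.8) and the pMIG readings of Slc22a17 (59.5 to 68.6) lay below the array median intensities (79.3 to 87.7). Under array median centring 4 of the 17 rose, and Lrp1 and Steap4 lost their calls. Without pMIG replicate 2, 4 rose as well, Slc22a17 and Steap4 being lost. Lrp1 was lost without pMIG replicate 1, and Steap4 also on leaving out replicate 3 of either group or pMIG-TGIF1 replicate 1. Lcn2, the siderophore-binding protein of neutrophils and macrophages, did not pass (log2 0.29 ± 0.11, adjusted p = 0.0734), nor under array median centring, which lowers log2 fold changes. It was called with the trended prior (0.0184), with quantile normalization (0.0324), with the dimmest 50% left out (0.0461) and without pMIG-TGIF1 replicate 1 (0.0398).

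Of 15 other storage, export and control genes 4 rose and 0 fell (26.7% called, close to the background, median 0.15). Cp encodes ceruloplasmin, a copper ferroxidase that works with ferroportin. It read 148, 203 and 206 in the pMIG-TGIF1 arrays, against 49.7, 48.0 and 41.3 in the pMIG arrays. All pMIG-TGIF1 arrays lay above all pMIG arrays, by 3.97-fold (log2 1.99 ± 0.14, limma adjusted p = 5.14e-06). In the pMIG arrays Cp (41.3 to 49.7) lay below the array median intensities (79.3 to 87.7). Its relative Heph, the ferroxidase hephaestin, rose 1.34-fold (adjusted p = 0.0189), a call lost under array median centring (adjusted p = 0.0546) and without pMIG replicate 3 (0.0888) or pMIG-TGIF1 replicate 3 (0.0553).

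Fbxl5, the iron-sensing ubiquitin ligase subunit that marks IRP2 for destruction, rose 1.54-fold. It read 1247, 1185 and 1548 in pMIG-TGIF1, against 875, 853 and 844 in pMIG (log2 0.62 ± 0.11, limma adjusted p = 0.00230). Aco1, the other iron sensor, did not pass (log2 0.23 ± 0.10, adjusted p = 0.133), nor under array median centring, which lowers log2 fold changes. It was called with quantile normalization (adjusted p = 0.0440) and without pMIG-TGIF1 replicate 3 (0.0436). That array had the lowest limma array weight, 0.562, against 0.98 to 1.52 for the others. The mitochondrial iron importers did not pass either, with log2 values of -0.15 (-0.26 centred) for Slc25a37 (adjusted p = 0.269) and -0.16 (-0.27 centred) for Slc25a28 (adjusted p = 0.308).

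Heme genes were read in a synthesis list and in a list of breakdown and transport. In the synthesis list 6 of 10 fell and 0 rose (60.0% called, median log2 fold change -0.39), and the 4 others did not pass. The enzymes that fell were, in pathway order, Uros 1.48-fold (log2 -0.56 ± 0.13), Urod 1.31-fold, Cpox 1.49-fold (-0.58 ± 0.10) and Fech, the ferrochelatase that inserts iron, 1.31-fold. Ppox, which acts between Cpox and Fech, did not pass (log2 0.16, 0.05 centred, adjusted p = 0.407). The transporters Abcb6 (1.82-fold, log2 -0.86 ± 0.09, limma adjusted p = 6.32e-05) and Abcb10 (1.57-fold) fell with them. Alas1, the rate-limiting first enzyme outside erythroid cells, read 2867, 3229 and 3219 in pMIG-TGIF1 and 3564, 3188 and 3298 in pMIG, with overlapping groups (log2 -0.11 ± 0.10, -0.22 centred, adjusted p = 0.490). Alad (-0.26, adjusted p = 0.153) and the erythroid Alas2 (-0.06, -0.16 centred, adjusted p = 0.811) did not pass either. Without moderation 2 of the 10 were called. Uros and Urod lost their calls without pMIG replicate 3, and Fech on leaving out replicate 1 or 2 of either group. Alad was called lower under array median centring (-0.36, adjusted p = 0.0486) and without pMIG-TGIF1 replicate 1 (-0.37, adjusted p = 0.0405).

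In the heme breakdown and transport list 3 of 10 rose, 1 fell and 6 did not pass (40.0% called, median 0.12). Flvcr1 was counted as not passing by its brighter probe set (log2 0.11, limma adjusted p = 0.620). Its other probe set was called higher (1.31-fold, adjusted p = 0.0190). Of the breakdown enzymes only Hmox1 was called. Hmox2, Blvra and Blvrb did not pass (limma adjusted p = 0.869, 0.366 and 0.931). Hmox1 encodes heme oxygenase, which opens the heme ring and frees its iron. It read 3866, 3621 and 5106 in the pMIG-TGIF1 arrays, against 640, 637 and 636 in the pMIG arrays. The groups were far apart, by 6.51-fold (log2 2.70 ± 0.13, limma adjusted p = 4.68e-07). Slc48a1, which encodes the heme transporter HRG1 of macrophage phagolysosomes, rose 1.44-fold (log2 0.52 ± 0.10, adjusted p = 0.00388), with 3251, 3080 and 3736 in pMIG-TGIF1, against 2455, 2189 and 2355 in pMIG. Flvcr2 rose 1.34-fold (adjusted p = 0.0234, lost under array median centring at 0.0634). Its call was also lost without pMIG replicate 2 (0.0724) or 3 (0.0867), and, among the TGIF1 arrays, without replicate 1 (0.0586) or 3 (0.0663). All Flvcr2 readings (36.8 to 58.6) lay below the array median intensities (79.3 to 87.7). Abcg2, a porphyrin exporter of stem and progenitor cells, fell 1.77-fold (log2 -0.82 ± 0.10, adjusted p = 0.000149).

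**Figure D3:**
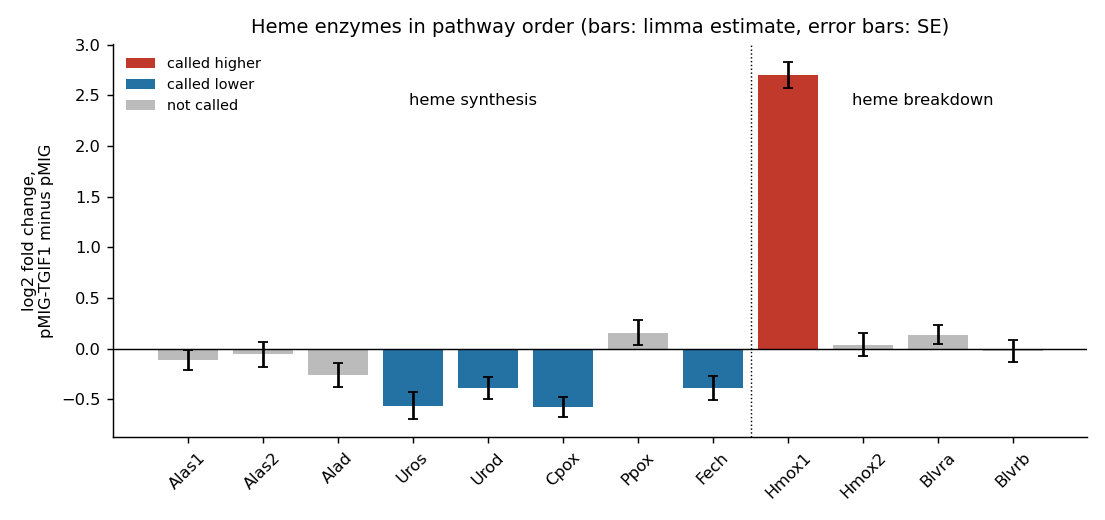
Log2 fold change, pMIG-TGIF1 minus pMIG (y axis), of heme enzymes in pathway order, with bars for the limma estimate, SE as error bars and colours for the call. Uros, Urod, Cpox and Fech are called lower, and Hmox1 stands at 2.70.

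Of 26 iron-sulfur cluster genes 5 fell and 2 rose (26.9% called, close to the background, median -0.14). Iba57 was counted as not passing by its brighter probe set (log2 0.14, limma adjusted p = 0.468). Its other probe set, at readings of 23.2 to 34.5, was called higher (1.26-fold, adjusted p = 0.0353). Ciapin1, a cytosolic assembly factor, fell 2.20-fold (log2 -1.14 ± 0.13, limma adjusted p = 0.000128), with 272, 290 and 210 in pMIG-TGIF1, against 561, 515 and 613 in pMIG. Ciao3, of the same cytosolic route, fell 1.59-fold, as did the ferredoxin reductase Fdxr (1.33-fold) and the scaffold genes Nubp1 and Nubp2 (log2 -0.31 and -0.43). The cochaperone Hscb (1.39-fold) and Nubpl (1.37-fold) rose. These counts moved with the setting. Under array median centring 8 fell and 1 rose, and without pMIG replicate 1, 3 fell and 1 rose. Leaving out pMIG-TGIF1 replicate 1 or 2, or pMIG replicate 3, also left 1 that rose. Nubp1, Nubp2 and Nubpl each lost their call on leaving out pMIG replicate 1 or 3. Nubp1 also lost it without any one of the pMIG-TGIF1 arrays, with quantile normalization and with the replicate block, Nubp2 without pMIG-TGIF1 replicate 3 and with the block, and Nubpl without pMIG-TGIF1 replicate 1 or 2, with quantile normalization and under array median centring.

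Markers of cell states that differ in iron handling were read in the same way, against the 25.4% of all genes called. Their lists were chosen with earlier results of these data known. All 10 dividing cell markers fell. Their summed intensity ran from 10448 to 14992 in the pMIG-TGIF1 arrays and from 23441 to 24605 in the pMIG arrays, and Mki67 fell 2.68-fold. All 7 MLL-fusion progenitor markers fell, with sums of 3146 to 3509 in pMIG-TGIF1 and 6139 to 6194 in pMIG. Among these, Kit and Cd34 lost their calls on leaving out replicate 1 of either group. Cd34 also lost it without pMIG replicate 3 (adjusted p = 0.108) or pMIG-TGIF1 replicate 2 (0.0518), and Kit without pMIG replicate 2 (0.108), with the replicate block (0.0547) and with quantile normalization (0.0615). All Cd34 readings (35.6 to 59.3) lay below the array median intensities (79.3 to 87.7). Of 10 macrophage markers 7 rose and 0 fell, with sums of 32287 to 34945 in pMIG-TGIF1 and 20083 to 22813 in pMIG. Mertk, a receptor for apoptotic cells, rose 5.60-fold, Cd14 5.02-fold, C5ar1 2.60-fold and Adgre1, which encodes F4/80, 1.96-fold. The pMIG readings of Mertk (30.5 to 45.6) lay below the array median intensities (79.3 to 87.7). Csf1r, Itgam and Fcgr1 did not pass (limma adjusted p = 0.244, 0.419 and 0.877). The part of these cell states in the iron gene changes was not tested. In bulk RNA more cells of a type and more RNA per cell cannot be told apart.

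Erythroid cells also carry much of the heme and iron machinery. The summed intensity of their 11 measured markers was 426 to 491 in pMIG-TGIF1 and 402 to 414 in pMIG. Of the 11, 2 rose (Hba-a1 1.30-fold and Hbb-bt 1.46-fold) and 0 fell, a share (18.2%) below the 25.4% of all genes. Both calls were lost without pMIG replicate 3.

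**Figure D4:**
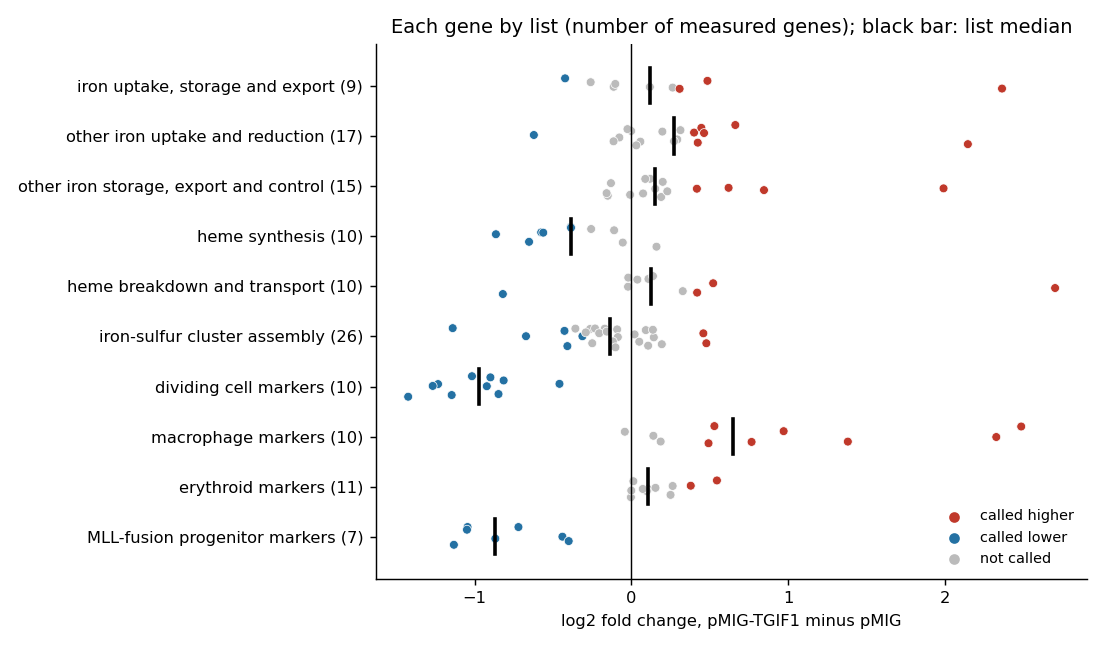
Log2 fold change, pMIG-TGIF1 minus pMIG (x axis), of each measured gene by list, coloured by call, with the list median as a black bar. Heme synthesis, dividing cell and progenitor markers lie to the left, macrophage markers to the right, and Slc11a1, Trf, Cp and Hmox1 stand out at 1.99 or more in their lists.

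The levels of 2 iron genes over the 6 arrays were compared with every other named gene outside the lists, predicted genes skipped. The genes most like Slc11a1 were the integrin gene Itga8 (Pearson r = 0.999), the costimulatory ligand gene Icosl (r = 0.999) and the lectin receptor gene Clec4a1 (r = 0.999). Those most like Tfrc were Otud7a (r = 0.999), Chmp7 (r = 0.996) and Vps16 (r = 0.995). These correlations share the same 6 arrays in 2 groups and are a description. Otud7a shares with Tfrc the order of the arrays, including the higher value of pMIG-TGIF1 replicate 2 (2919, 3553 and 3003 in pMIG-TGIF1, against 4099, 3809 and 3992 in pMIG).

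Chromosomal neighbours of the called genes did not share one direction. Next to Slc11a1 on chromosome 1, Catip (log2 -0.03, -0.14 centred, limma adjusted p = 0.884) and Ctdsp1 (-0.22, adjusted p = 0.176) did not pass, although Ctdsp1 was called lower under array median centring (-0.33, adjusted p = 0.0468). Beside Fth1 on chromosome 19, the mitosis gene Incenp fell 2.28-fold and Best1 rose 1.31-fold. Beside Ftl1 on chromosome 7, the glycogen synthase gene Gys1 rose 2.08-fold and Bax did not pass (-0.12, -0.23 centred, adjusted p = 0.482). Beside Tfrc on chromosome 16, Tnk2 rose 1.32-fold and Zdhhc19 did not pass (-0.12, -0.23 centred, adjusted p = 0.480). The rises of Best1 and Tnk2 were lost under array median centring (adjusted p = 0.102 for each) and on leaving out pMIG replicate 1 or pMIG-TGIF1 replicate 1 or 3. Best1 was also lost without pMIG replicate 2, and Tnk2 without pMIG replicate 3 or pMIG-TGIF1 replicate 2.

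Direction throughout rests on the labels. The only probe set of the endogenous Tgif1 read 239, 239 and 258 in the arrays labelled pMIG-TGIF1, against 320, 376 and 408 in the pMIG arrays (log2 -0.58, limma adjusted p = 0.00286), which goes against the label. Whether that probe set can read the vector's TGIF1 was not tested.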

How the data were processed

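RNA of 3 pMIG-TGIF1 and 3 pMIG samples (300 ng each, per the labels' protocols) was measured on 1 array each. The deposited intensities are linear, 1 per probe set, made by the authors with Partek and RMA, per the submitters' processing notes, which give no versions or settings. The genome build behind the annotation is not given in the sources used here. The deposited table also holds the authors' p-value, to 2 decimals, and the authors' signed fold change, here called a score because it is negative where TGIF1 is lower. All 6 columns of each deposited table were matched to samples by their labels, and both hold the same intensities.

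Of 28853 probe sets, 25123 carry a symbol, updated through RefSeq accessions or symbols. Their log2 values went into limma 3.58.1 under R 4.3.3 (lmFit, eBayes, no filter on dim probe sets) over all 6 arrays, pMIG-TGIF1 minus pMIG, with Benjamini-Hochberg adjustment over all named probe sets. The script was tested on simulated data. The number of arrays limits the precision. The 3 paired differences used exact two-sided permutation over arrays, on the probe set with the highest mean of each gene.

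The 9 genes and the 10 related and marker lists were chosen with earlier results of these data known. One gene of the heme synthesis list is not reported here and is left out of its counts. Named genes are all 9 members, up to 4 per list with the smallest p, and the 3 genes most like Tfrc and Slc11a1. Other list genes and Tgif1 were picked as examples with their values known. The chromosomal neighbours are the nearest tested protein-coding gene on each side of each called gene, in RefSeq order. Alternatives, 17 in all, were no moderation, a trended robust prior, array weights, the replicate block, quantile normalization, array median centring, every probe set, the brightest probe set of each gene, no probe sets among the dimmest 30% or 50%, the second deposited table, and 6 fits without 1 array.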

Additional observations from a re-analysis of the deposited data

How the results depend on the processing

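Slc11a1 and Fth1 kept their call and direction under all 17 alternatives. The count of the 9 iron genes called lower was 1. It was 0 with no moderation, 2 under array median centring (Tfrc and Ncoa4), and 0 to 1 on leaving out each array. Without pMIG-TGIF1 replicate 3 the gene called lower was Ncoa4 in place of Tfrc. Ncoa4 was counted here by its brighter probe set, 10399198. The count called higher was 3. It ran from 2 to 3 on leaving out each array, and was 2 under array median centring, 2 with the replicate block and 4 with quantile normalization. Without pMIG-TGIF1 replicate 3 Slc40a1 was called higher in place of Ftl1. With no moderation 2 other uptake genes and 0 iron-sulfur genes were called higher, 2 heme synthesis genes and 3 iron-sulfur genes were called lower, and the calls over all transcript clusters were 1754 higher and 1647 lower, against 2892 and 3308. Iron-sulfur genes called higher numbered 1 with quantile normalization and 1 under array median centring, where 8 were called lower, and leaving out each array gave 1 to 2 higher and 3 to 5 lower. With the dimmest 50% left out 0 heme transport genes were called lower, since Abcg2 is then not tested. Under array median centring 30.9% of calls were higher, against 46.6% (2179 higher and 4870 lower).

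The sign turned for Slc11a2 without pMIG-TGIF1 replicate 3 (range on leaving out each array -0.19 to 0.043), for Alas2 without pMIG replicate 2 (-0.14 to 0.066), and for Catip without pMIG replicate 2 or pMIG-TGIF1 replicate 3 (-0.098 to 0.015), none of them called. The differences between paired genes kept their direction (Slc11a1 minus Slc11a2 2.28 to 2.57, Fth1 minus Ftl1 0.14 to 0.21, and Tfrc minus Slc40a1 -0.79 to -0.56, on leaving out each array). The labels do not say whether the replicate numbers pair the samples. The correlations of deviations of same-numbered arrays were -0.19, -0.11 and -0.05, and those of other pairs ran from -0.07 to 0.18. With 3 arrays per group these values cannot settle it. With the replicate block 3 iron-sulfur genes were called lower, and the calls over all transcript clusters were 2579 higher and 2957 lower. Ftl1, Fech, Kit, Nubp1 and Nubp2 were among the genes that lost their calls with it. No scanner files were used, so background and summarization could not be varied.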
